A study of Mus musculus with 60 samples.

Results

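Cdx1, Cdx2, Foxd2, Osr2 and Tbx3 are 5 genes for transcription factors, chosen by their symbols from the 55357 genes counted in sorted mouse gut epithelium. Each symbol has 1 entry in the table. The 5 were picked with their levels along the gut in view, so their differences between gut parts are given as a description, with no test. The GFP fractions within a part were compared by test.

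The 60 libraries hold polyadenylated RNA of epithelial cells from 8-week-old mice. All groups share the Lgr5-2A-eGFP allele, in which green fluorescent protein is made together with the crypt base stem cell marker Lgr5, and no group without the allele is among them. The small intestine was cut into 3 equal parts (proximal, middle, distal) and the colon into 2 (proximal, distal). Crypts were released by chelation, dissociated with TrypLE and sorted by fluorescence into 3 fractions (GFP-high, GFP-intermediate, and cells without the reporter, called GFP-negative), with at least 30000 cells per fraction from colon and 50000 from small intestine. Each of the 15 groups has 4 libraries, numbered 1 to 4. Nothing in the labels says that these came from separate mice, so p-values measure the spread between these libraries, which may be technical. The GFP-negative fraction is defined by the lack of the reporter and can hold any other cell of the preparation.

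Caudal-type homeodomain proteins CDX1 and CDX2 set and maintain intestinal identity. CDX2 keeps the gut epithelium from taking on foregut character and, with CDX1, drives many genes of the mature enterocyte. FOXD2 is a forkhead factor, OSR2 a zinc finger protein of the odd-skipped family and TBX3 a T-box factor that mostly acts as a repressor. Members of these last families are best known for patterning organs in the embryo, OSR2 in palate and limb and TBX3 in limb, heart and mammary gland.

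Foxd2 (ENSMUSG00000055210) lies on the minus strand of chromosome 4 at 114906282-114908873 in the GRCm38 build. Cdx2 (ENSMUSG00000029646) lies on the minus strand of chromosome 5 at 147300805-147307270, and Tbx3 (ENSMUSG00000018604) on the plus strand of the same chromosome at 119670669-119684724. Osr2 (ENSMUSG00000022330) lies on the plus strand of chromosome 15 at 35296098-35303305. All 5 are protein coding in GENCODE M21. RefSeq promoter windows on GRCm38.p6 were at hand for 2 of the 5 genes, Cdx2 and Foxd2, and not for Cdx1, Osr2 and Tbx3. The RefSeq starts used for these windows differ from the GENCODE M21 coordinates above. The Cdx2 stretch below overlaps the coordinates of its gene, and the Foxd2 stretch begins beyond those of its gene. The 250 bases before each start are shown because Foxd2 was near 0 outside the colon and Cdx2 had its lowest group means in the distal colon. They run 5′ to 3′ on the gene's strand, and capitals mark a forkhead motif.
Cdx2, chr5:147307250-147307499, minus strand: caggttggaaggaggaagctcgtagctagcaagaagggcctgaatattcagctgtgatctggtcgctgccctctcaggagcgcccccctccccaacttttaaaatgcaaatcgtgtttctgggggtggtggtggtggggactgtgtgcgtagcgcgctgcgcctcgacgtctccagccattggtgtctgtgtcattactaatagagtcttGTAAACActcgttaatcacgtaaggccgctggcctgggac
Foxd2, chr4:114908899-114909148, minus strand: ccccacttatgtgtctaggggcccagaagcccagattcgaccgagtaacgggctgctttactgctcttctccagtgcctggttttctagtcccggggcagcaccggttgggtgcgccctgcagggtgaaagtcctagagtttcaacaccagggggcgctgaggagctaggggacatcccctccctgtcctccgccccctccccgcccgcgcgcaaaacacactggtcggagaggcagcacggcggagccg
Motifs were searched on both strands of windows of 300 bases, 250 before the start and 50 after it. The CDX motif TTTAT was in 40.0% of all 32851 such windows, the forkhead motif GTAAACA in 3.65%, the T-box motif GGTGTGA in 3.98% and the odd-skipped motif GCTACTG in 3.7%. The Cdx2 window held 1 match, a forkhead motif beginning 40 bases before the start, and the Foxd2 window held none. G and C made up 57.3% of the Cdx2 window and 67.7% of the Foxd2 window, against a median of 52.7% over all windows. There were 18 CG pairs in the Cdx2 window and 26 in the Foxd2 window, against a median of 7. Of all windows 29.7% had at least as many as Cdx2 and 16.9% at least as many as Foxd2.

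Sequencing depth lay between 55411864 and 113917959 counts per library. Levels are given as CPM, counts relative to library depth after scaling by TMM, or, to compare genes, as RPKM, which also divides by the gene's length. Lgr5 was at 144.6 to 598 CPM in GFP-high, 55.7 to 188 in GFP-intermediate and 1.64 to 17.4 in GFP-negative libraries, in the order of the gates. The 7 epithelial markers summed to between 6501 and 22810 CPM in every library. Of 6 smooth muscle markers, the 5 that passed the filter on low counts summed to at most 3.74 CPM. Of 10 fibroblast and mesenchyme markers, 8 passed, and they summed to 2.35 to 7.74 CPM in GFP-high and 14.46 to 131 CPM in GFP-negative libraries. The 5 endothelial markers that passed summed to at most 21.13 CPM, in distal small intestine GFP-negative cells. The 12 leukocyte markers summed to 4.56 to 44.2 CPM in GFP-high and to 119.5 to 1998 CPM in GFP-negative libraries. Proximal colon GFP-negative replicate 3 stood apart, with the highest enteroendocrine sum of all libraries, 11200 CPM.

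**Figure D1:**
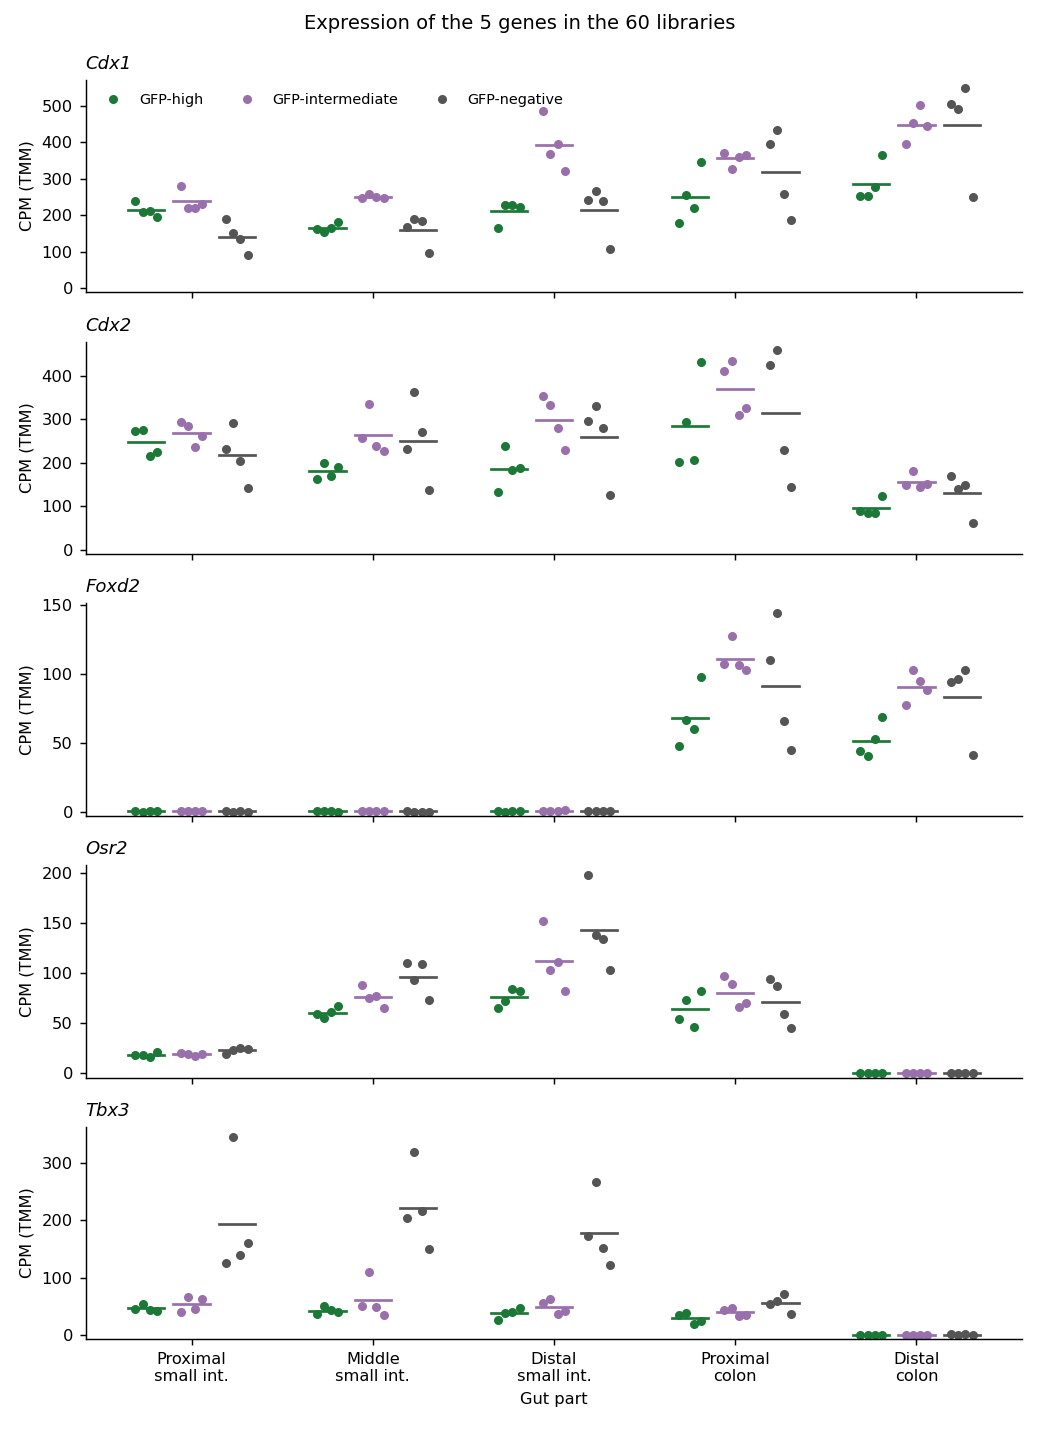
Expression of Cdx1, Cdx2, Foxd2, Osr2 and Tbx3 in CPM (vertical axis, scaled by TMM) in each of the 60 libraries, by gut part (horizontal axis) and GFP fraction (colour); points are libraries and bars are group means. Foxd2 is near 0 in all 36 small intestinal libraries, and Osr2 and Tbx3 are near 0 in all 12 distal colon libraries.

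Per kilobase, Cdx1 and Cdx2 had the highest group means of the 5 transcripts in every group. In proximal colon GFP-high cells Cdx1 was at 143 ± 41.0 RPKM (SD, n = 4), Cdx2 at 125 ± 47.6, Foxd2 at 26.3 ± 8.19, Osr2 at 17.6 ± 4.52 and Tbx3 at 4.45 ± 1.27. In the proximal colon none of the 5 was near 0. In distal colon GFP-high cells the same scale gave 164 ± 30.3 for Cdx1, 42.2 ± 8.22 for Cdx2 and 19.9 ± 4.93 for Foxd2, with Osr2 at 0.0498 and Tbx3 at 0.0610. In distal small intestine GFP-high cells it gave 120 ± 17.8 for Cdx1, 82.1 ± 19.2 for Cdx2, 20.9 ± 2.45 for Osr2 and 5.74 ± 1.31 for Tbx3, with Foxd2 at 0.0738. In bulk samples such as these, fewer cells with a transcript and less transcript per cell cannot be told apart.

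Foxd2 was expressed in colon and near 0 in small intestine. Its level was at most 0.777 CPM in the 36 small intestinal libraries, 5 of which had no count, and at least 40.2 CPM in the 24 colon libraries, so the organs did not overlap. Across the 60 libraries a limit of 3 counts corresponds to 0.0263 to 0.0541 CPM, which covers counting error only. In proximal colon the GFP-high libraries 1 to 4 were at 48.0, 66.9, 60.2 and 97.8 CPM, the GFP-intermediate at 107, 128, 107 and 103, and the GFP-negative at 110, 144, 66.2 and 44.7. All 4 GFP-high libraries lay under all 4 GFP-intermediate ones, while the GFP-negative libraries spanned both. GFP-high minus GFP-intermediate was -0.71 ± 0.48 (SE) on the log2 scale and did not pass the test (edgeR adjusted p = 0.577).

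The distal colon showed the same order of Foxd2. GFP-high libraries were at 44.0, 40.2, 53.1 and 68.9 CPM, GFP-intermediate at 77.8, 103, 94.6 and 88.4, and GFP-negative at 94.0, 96.3, 103 and 41.3. Again GFP-high and GFP-intermediate did not overlap, and GFP-negative replicate 4 fell among the GFP-high values. GFP-high minus GFP-intermediate was -0.82 ± 0.48 and did not pass over all 15 groups (edgeR adjusted p = 0.341), while the fit of these 2 groups alone gave -0.80 (edgeR adjusted p = 0.00772). Between the colon parts the proximal mean was higher in each fraction, at 68.2 ± 21.2 against 51.6 ± 12.8 CPM in GFP-high, 111 ± 11.2 against 90.9 ± 10.6 in GFP-intermediate and 91.3 ± 44.6 against 83.6 ± 28.5 in GFP-negative cells, and only the GFP-intermediate libraries of the 2 parts did not overlap.

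The transcript Foxd2os, annotated on the opposite strand 383 bases from Foxd2, was found in the same organs. It was at 39.3 to 100 CPM in colon libraries and at most 2.83 CPM in small intestinal ones. Foxd2 and Foxd2os share 0 exonic bases in GENCODE M21, so exon reads of one do not fall on the other. Whether counting used strand is not given in the sources used here.

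Osr2 was higher in the distal than in the proximal small intestine, was also present in the proximal colon and was near 0 in the distal colon. In GFP-high cells the proximal small intestine libraries were at 17.9, 18.2, 16.7 and 21.7 CPM and the distal ones at 65.1, 71.7, 84.2 and 81.7. In GFP-intermediate cells these parts gave 20.5, 19.0, 17.6 and 19.5 against 152, 103, 111 and 82.6 CPM, and in GFP-negative cells 19.7, 23.3, 24.9 and 24.6 against 198, 138, 134 and 103. Every distal library was above every proximal one in all 3 fractions.

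The fitted log2 difference of Osr2 between the distal and proximal small intestine was 2.02 ± 0.47 (SE) in GFP-high, 2.55 ± 0.47 in GFP-intermediate and 2.63 ± 0.48 in GFP-negative cells, given with no test. The middle part lay between in mean, at 60.5 ± 5.02, 76.4 ± 9.47 and 96.4 ± 16.9 CPM in the 3 fractions in the same order. Middle and distal libraries overlapped in GFP-intermediate and GFP-negative cells, and also in GFP-high cells, where the middle part reached 66.8 CPM and the distal part began at 65.1.

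Between fractions Osr2 passed in no part in the main fit over all 15 groups. GFP-high libraries lay under all GFP-negative ones in the middle and distal small intestine, by -0.67 ± 0.45 (edgeR adjusted p = 0.223) and -0.92 ± 0.45 (edgeR adjusted p = 0.0829). Fits of those groups alone gave edgeR adjusted p = 0.00233 and 0.00222. The spread shared by all 15 groups includes the distal colon, where Osr2 is near 0. The part of the distal colon in the difference between these fits was not tested. Over all 15 groups, edgeR's newer quasi-likelihood method gave adjusted p = 0.0336 in the middle and 0.00313 in the distal part. DESeq2's size factors gave edgeR adjusted p = 0.045 in the distal part. Against GFP-intermediate cells, fits of those groups alone gave -0.32 in the middle and -0.56 in the distal part (edgeR adjusted p = 0.0462 and 0.0405).

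In proximal colon Osr2 was at 63.8 ± 16.4 CPM in GFP-high, 80.4 ± 14.96 in GFP-intermediate and 71.2 ± 23.2 in GFP-negative cells (SD, n = 4 each). Past that part the level dropped to at most 0.735 CPM in all 12 distal colon libraries, of which 6 had no count. The libraries numbered 3 were the highest of the 4 in each distal colon fraction, with 0.722 CPM in GFP-high, 0.419 in GFP-intermediate and 0.735 in GFP-negative cells. Those 3 values came from 66, 34 and 64 counts, and no other distal colon library had more than 14 counts.

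Tbx3 was higher in GFP-negative cells than in both other fractions of the small intestine. Proximal small intestine GFP-high libraries were at 45.6, 55.1, 44.2 and 42.5 CPM, GFP-intermediate at 41.1, 67.1, 44.8 and 62.1, and GFP-negative at 126, 345, 140 and 161. In the middle part the GFP-high values were 36.1, 50.7, 43.1 and 40.7, the GFP-intermediate 50.8, 109.5, 48.5 and 35.9, and the GFP-negative 204, 319, 216 and 149. The GFP-negative libraries were above all others in both parts, and replicate 2 was the highest of them.

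In the distal small intestine Tbx3 had the same order. Its GFP-high libraries were at 26.2, 38.8, 39.8 and 47.2 CPM, GFP-intermediate at 56.3, 62.6, 36.7 and 42.6, and GFP-negative at 173, 266, 152 and 122. GFP-negative libraries again exceeded all others, replicate 2 the most. The log2 difference of Tbx3 between GFP-high and GFP-negative cells was -2.04 ± 0.47 (SE) in the proximal part (edgeR adjusted p = 0.000278), -2.38 ± 0.48 in the middle part (edgeR adjusted p = 3.55e-05) and -2.23 ± 0.47 in the distal part (edgeR adjusted p = 8.05e-05).

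GFP-intermediate cells were also lower than GFP-negative cells for Tbx3, by -1.84 ± 0.47 in the proximal (edgeR adjusted p = 0.00107), -1.86 ± 0.47 in the middle (edgeR adjusted p = 0.000959) and -1.85 ± 0.47 in the distal small intestine (edgeR adjusted p = 0.000951). GFP-high and GFP-intermediate libraries overlapped in all 3 parts. In proximal colon the levels were lower, at 29.5 ± 8.39 CPM in GFP-high, 40.2 ± 7.04 in GFP-intermediate and 55.5 ± 14.7 in GFP-negative cells. There GFP-high minus GFP-negative was -0.91 ± 0.46, which did not pass the test (edgeR adjusted p = 0.145), although it did in a fit of these groups alone, at -0.90 (edgeR adjusted p = 0.0267). Distal colon libraries held at most 1.14 CPM, 2 of 12 with no count.

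The GFP contrast of Tbx3 was compared between the organs. Averaged over parts, GFP-high minus GFP-negative was higher in colon than in small intestine by 1.32 ± 0.46 on the log2 scale (edgeR adjusted p = 0.0212). That average includes the distal colon, where the gene is near 0, and without distal colon GFP-high replicate 3 the difference was 0.76 and did not pass (edgeR adjusted p = 0.26). With the proximal colon alone in place of both parts, a comparison chosen after the values were seen, it was 1.31 and did not pass (edgeR adjusted p = 0.0636).

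Leukocyte, enterocyte and goblet marker sums were higher in GFP-negative than in GFP-high small intestine, as Tbx3 was, while Paneth and tuft sums were lower. Fibroblast and mesenchyme sums were higher there too, at 14.46 to 101.4 against 2.35 to 6.71 CPM. Paneth markers summed to 438.1 to 1401 CPM in small intestinal GFP-negative libraries and to 5189 to 25450 in GFP-high ones. Tuft markers summed to 38.5 to 107.4 CPM against 174.8 to 605.9. In small intestinal GFP-negative groups 11 of 12 leukocyte markers were higher than in GFP-high cells, with sums of 240.8 to 1998 CPM against 17.9 to 44.2, and so were 9 of 9 enterocyte markers, with sums of 11770 to 35520 against 710 to 2754 CPM. Of all genes 47.1%, 48.3% and 52% passed in this comparison from proximal to distal small intestine, in either direction. In each of the 3 small intestinal parts, the GFP-negative library with the most Tbx3, replicate 2, had the lowest leukocyte sum of its group, at 250.3, 240.8 and 334.6 CPM. Its enterocyte sum was the highest of the 4 in the proximal and middle parts, at 35520 and 26860 CPM, and the second lowest in the distal part, at 11880. The 11 dissociation and heat shock genes summed to more in replicate 2 than in the other 3 GFP-negative libraries of each small intestinal part, at 839.8, 889.8 and 938.3 CPM against at most 491.8, 632.7 and 611.8. In proximal colon GFP-negative cells, replicate 3 had the most Tbx3, the highest leukocyte sum, 1229 CPM, and the highest sum of dissociation and heat shock genes, 1922 CPM. It also had the highest enteroendocrine, enterocyte and surface colonocyte sums of its group, 11200, 463.5 and 7912 CPM, and the lowest goblet sum, 18290 CPM. Ptprc, the pan-leukocyte antigen, was at 49.5 to 422.6 CPM in GFP-negative small intestine. Goblet markers were lower in GFP-high cells as well, 7, 6 and 7 of 7 from proximal to distal, with sums of 2100 to 4360 against 33490 to 60750 CPM. The part of these cells and of the dissociation and heat shock genes in the Tbx3 difference was not tested. The annotated neighbours of Tbx3 were low, Tbx3os1 at up to 0.87 CPM and Tbx3os2 at up to 5.57 CPM, the latter in GFP-negative small intestine. Tbx3os1 shares 115 exonic bases with Tbx3, and reads there cannot be told apart without strand.

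Cdx1 (ENSMUSG00000024619, on the minus strand of chromosome 18) was expressed in every library, at 89.3 to 548 CPM, and its order across fractions changed along the gut. In proximal small intestine the GFP-high libraries were at 239, 208, 211 and 194 CPM, the GFP-intermediate at 280, 221, 219 and 231, and the GFP-negative at 190, 150, 135 and 89.3. GFP-negative libraries were below all others there. GFP-high exceeded GFP-negative by 0.60 ± 0.23 on the log2 scale (edgeR adjusted p = 0.029), and GFP-intermediate exceeded it by 0.75 ± 0.23 (edgeR adjusted p = 0.00663). Without GFP-high replicate 1, or GFP-negative replicate 3 or 4, of this part the first difference was 0.54, 0.58 or 0.43 and did not pass (edgeR adjusted p = 0.0748, 0.0589 and 0.143). With DESeq2's size factors it was 0.49 (edgeR adjusted p = 0.0663).

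In the middle small intestine the GFP-intermediate fraction stood above both others for Cdx1. Its libraries were at 247, 258, 249 and 247 CPM, against 163, 155, 164 and 182 in GFP-high and 168, 190, 185 and 96.2 in GFP-negative cells. It did not overlap with either. The difference from GFP-negative was 0.65 ± 0.23 (edgeR adjusted p = 0.0198), and it was 0.47 without GFP-negative replicate 4 of this part (edgeR adjusted p = 0.12). The difference of GFP-high from GFP-intermediate was -0.59 ± 0.23 and did not pass over all 15 groups (edgeR adjusted p = 0.125), while the fit of these 2 groups alone gave -0.58 (edgeR adjusted p = 0.00234).

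In the distal small intestine, too, GFP-intermediate cells had the most Cdx1. GFP-high libraries were at 164, 229, 226 and 222 CPM, GFP-intermediate at 486, 369, 395 and 320, and GFP-negative at 242, 267, 239 and 106. All GFP-intermediate libraries exceeded all others. GFP-high minus GFP-intermediate was -0.90 ± 0.23 (edgeR adjusted p = 0.00715) and GFP-intermediate minus GFP-negative 0.88 ± 0.23 (edgeR adjusted p = 0.00141). Without GFP-intermediate replicate 1, the highest library, the former was -0.78 (edgeR adjusted p = 0.053), and without all libraries numbered 1 it was -0.68 (edgeR adjusted p = 0.222). That highest library stood apart in other genes too. Its tuft markers summed to 1136 CPM against 438.9 to 467 in the other 3 libraries of its group, and its epithelial markers to 16260 against 9310 to 11300. Their part in its Cdx1 level was not tested.

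In both colon parts the GFP-high mean of Cdx1 was the lowest of the 3 fractions. Distal colon GFP-high libraries were at 253, 252, 276 and 364 CPM, GFP-intermediate at 394, 453, 503 and 443, and GFP-negative at 505, 489, 548 and 249. Replicate 4 of the GFP-negative fraction was below all 4 GFP-high libraries, and the other 3 were above them, so the groups overlapped. GFP-high minus GFP-negative was -0.65 ± 0.23 (edgeR adjusted p = 0.0321). This call was lost without any 1 of 6 libraries, namely GFP-high replicates 1 to 3 and GFP-negative replicates 1 to 3 of the distal colon, with values of -0.63 to -0.53 (edgeR adjusted p = 0.0748 to 0.116). It was also lost in the fit of these groups alone, at -0.65 (edgeR adjusted p = 0.0509), and without all libraries numbered 1, at -0.50 (edgeR adjusted p = 0.219). Without all libraries numbered 4, a comparison chosen after the values were seen, the difference was -0.98 and passed (edgeR adjusted p = 9.58e-06).

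Proximal colon libraries gave 178, 255, 219 and 347 CPM of Cdx1 in GFP-high, 371, 327, 359 and 366 in GFP-intermediate and 395, 433, 258 and 186 in GFP-negative cells. GFP-high overlapped with both other fractions, and its difference of GFP-high from GFP-negative was -0.35 ± 0.23 (edgeR adjusted p = 0.288). Averaged over parts, the GFP contrast of Cdx1 was lower in colon than in small intestine, by -0.71 ± 0.21 (edgeR adjusted p = 0.00647). With the proximal colon alone in place of both parts it was -0.56 (edgeR adjusted p = 0.125), and without all libraries numbered 1 it was -0.60 (edgeR adjusted p = 0.0681), and neither passed. Between the distal and proximal small intestine Cdx1 was higher in GFP-intermediate cells by 0.73 ± 0.23 with no overlap of libraries, given with no test.

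Along the gut, Cdx1 group means in GFP-high cells ran from 166 ± 11.3 CPM in middle, 210 ± 31.1 in distal and 213 ± 18.7 in proximal small intestine to 250 ± 71.8 in proximal and 286 ± 53.1 in distal colon. Distal colon libraries did not overlap with any small intestinal part, and proximal colon libraries overlapped with all. In GFP-intermediate cells the order was proximal, 237 ± 28.6, and middle small intestine, 250 ± 5.45, then proximal colon, 356 ± 19.5, distal small intestine, 393 ± 69.5, and distal colon, 448 ± 44.7. Only the step from middle small intestine to proximal colon separated neighbours in that order. GFP-negative means ran from 141 ± 41.5 to 160 ± 43.5 and 213 ± 72.6 down the small intestine and on to 318 ± 116 and 448 ± 135 in the colon, each neighbour overlapping with the next.

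Cdx2 was at 60.6 to 458.5 CPM across all libraries and lowest in the distal colon. Distal colon GFP-high libraries were at 88.2, 84.8, 85.5 and 123 CPM, GFP-intermediate at 149, 180, 145 and 151, and GFP-negative at 169, 139.8, 149.6 and 60.6. Proximal colon libraries gave 201, 293, 207 and 432, then 410, 435, 309 and 325, and then 424, 458.5, 229 and 144 in the same fractions. GFP-high and GFP-intermediate libraries of the 2 colon parts did not overlap. The fitted log2 difference of distal from proximal colon was -1.57 ± 0.29 in GFP-high, -1.24 ± 0.29 in GFP-intermediate and -1.28 ± 0.29 in GFP-negative cells, given with no test.

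Cdx1 and Cdx2 lay in opposite order in the colon parts. The Cdx1 means were higher distally in each fraction, by 0.20 ± 0.23, 0.33 ± 0.23 and 0.49 ± 0.23, and only the GFP-intermediate libraries did not overlap. In the small intestine Cdx2 means were 247 ± 31.2, 180 ± 17.8 and 186 ± 43.5 CPM from proximal to distal in GFP-high, 269 ± 25.7, 263 ± 48.6 and 299 ± 55.2 in GFP-intermediate and 217 ± 61.7, 250 ± 93.1 and 258 ± 90.9 in GFP-negative cells. The libraries of the distal and proximal small intestine overlapped in all 3 fractions. No difference of Cdx2 between fractions passed the test over all 15 groups, where GFP-high minus GFP-negative ranged from -0.47 ± 0.28 to 0.19 ± 0.28 and the nearest to the threshold was GFP-high minus GFP-intermediate in distal small intestine, at -0.69 ± 0.28 (edgeR adjusted p = 0.0955). Fits of the GFP-high and GFP-intermediate groups alone did pass in 3 parts, at -0.54 in middle and -0.68 in distal small intestine and -0.69 in distal colon (edgeR adjusted p = 0.0135, 0.023 and 0.00645). Without GFP-negative replicate 4 of the part, GFP-high minus GFP-negative of Cdx2 passed as well, at -0.68 in middle and -0.70 in distal small intestine (edgeR adjusted p = 0.0496 and 0.0355).

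**Figure D2:**
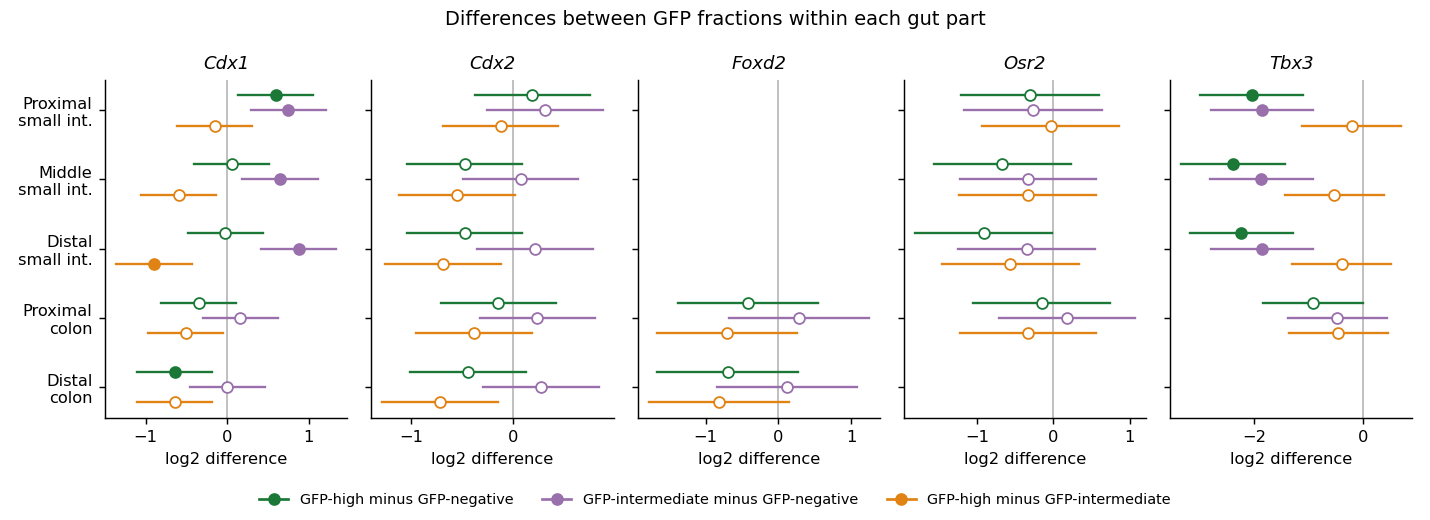
Log2 differences between GFP fractions (horizontal axis, log2 units) in each gut part (vertical axis) for each gene, from edgeR over all 15 groups; lines are 95% confidence intervals and filled points passed the test. Foxd2 in small intestine and Osr2 and Tbx3 in distal colon are left out because both groups are near 0. Tbx3 lies left of 0 against GFP-negative cells in all 3 small intestinal parts, from -2.38 to -1.84, and Cdx1 of GFP-intermediate cells lies right of 0 there, from 0.65 to 0.88.

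Counted over the 5 genes, the calls are set here against the share of all 23360 tested genes that passed. For GFP-high against GFP-negative cells 5 of 25 tests passed. By part these were 2 of 5 genes in proximal small intestine, where 47.1% of all genes passed, 1 of 5 in middle (48.3%) and 1 of 5 in distal small intestine (52%), none in proximal colon (25.3%) and 1 of 5 in distal colon (25.1%). For GFP-high against GFP-intermediate cells 1 of 25 passed, in distal small intestine, where 13.5% of all genes did. The background in the other parts was 0.449% in proximal and 3.58% in middle small intestine, 0.0428% in proximal and 1.81% in distal colon.

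GFP-intermediate against GFP-negative cells gave 6 calls in 25 tests, 2 of 5 genes in each small intestinal part, with 41.6%, 41% and 44.5% of all genes from proximal to distal, and none in proximal (15%) or distal colon (9.8%). Distal against proximal small intestine, a comparison of levels along the gut, had 4 of 15 differences under the same threshold. These were 1 of 5 genes in GFP-high cells (11.8% of all genes), 2 of 5 in GFP-intermediate cells (8.81%) and 1 of 5 in GFP-negative cells (15.6%), and nothing is read from them. With 5 genes, 1 call is a share of 20%, so the counts between fractions lie near or below the background. The difference of the GFP contrast between organs passed for 2 of 5 genes, with 32.2% of all genes. Between the colon parts (0.616%) and between the ends of the small intestine (3.54%) it passed for none of the 5 by edgeR over all libraries, and none of those 10 tests had an unadjusted p under 0.05 or passed by DESeq2's Wald test. It did pass for Cdx1 between the ends of the small intestine without all libraries numbered 4, at -0.74 (edgeR adjusted p = 0.033), where 5.84% of all genes passed. It also passed for Osr2 between the colon parts without distal colon GFP-high replicate 3, at -7.11 (edgeR adjusted p = 0.0487), with Osr2 near 0 in the distal colon.

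The replicate number moved with the 5 genes in the GFP-negative fraction. Replicate 4 was the lowest of the 4 GFP-negative libraries for Cdx1 and for Cdx2 in all 5 parts, and for Foxd2 in both colon parts. It was at 0.426 to 0.564 of the mean of replicates 1 to 3 for Cdx1, 0.387 to 0.587 for Cdx2, and 0.419 and 0.422 for Foxd2 in proximal and distal colon. It was also the lowest for Osr2 and for Tbx3 in middle and distal small intestine and proximal colon, at 0.707, 0.657 and 0.56 of that mean for Osr2 and 0.606, 0.619 and 0.594 for Tbx3. In proximal small intestine it was not the lowest for these 2 genes, at 1.09 and 0.789. Over all genes at 10 CPM or more the median of that ratio was 0.963 to 1.01 by part, and replicate 4 was the lowest for 32% to 42% of genes. In colon GFP-high cells replicate 4 was the highest for Cdx1, Cdx2 and Foxd2 in both parts. Of 37 mitochondrially encoded genes, the 17 that passed the filter on low counts summed to 36590 to 62210 CPM in the GFP-negative libraries numbered 4. In the other GFP-negative libraries they summed to 18490 to 43880 CPM. The dissociation and heat shock genes had their lowest GFP-negative sum in replicate 4 of each part, at 351.1, 349.5, 465.8, 673.9 and 495 CPM from proximal small intestine to distal colon. Their part in these levels was not tested. The deposited table gives the replicate number as the batch of each library.

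Without all libraries numbered 4, a comparison chosen after these values were seen, 10 of 25 tests of GFP-high against GFP-negative cells passed in place of 5, and 8 of 25 against GFP-intermediate cells in place of 1. GFP-high minus GFP-negative of Cdx2 was then -0.70 in middle and -0.71 in distal small intestine, -0.66 in proximal and -0.83 in distal colon (edgeR adjusted p = 0.00526, 0.00446, 0.013 and 0.00258). Cdx1 was then lower by -0.73 in proximal and by -0.98 in distal colon (edgeR adjusted p = 0.000287 and 9.58e-06). The shares of all genes passing in those 4 parts were 46%, 49.5%, 32.2% and 28.4%, and 44.5% in proximal small intestine. Against GFP-intermediate cells more of all genes passed too in 4 parts, 10.8% in middle and 19.5% in distal small intestine, 5.17% in proximal and 9.43% in distal colon, while 0.162% passed in proximal small intestine.

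**Figure D3:**
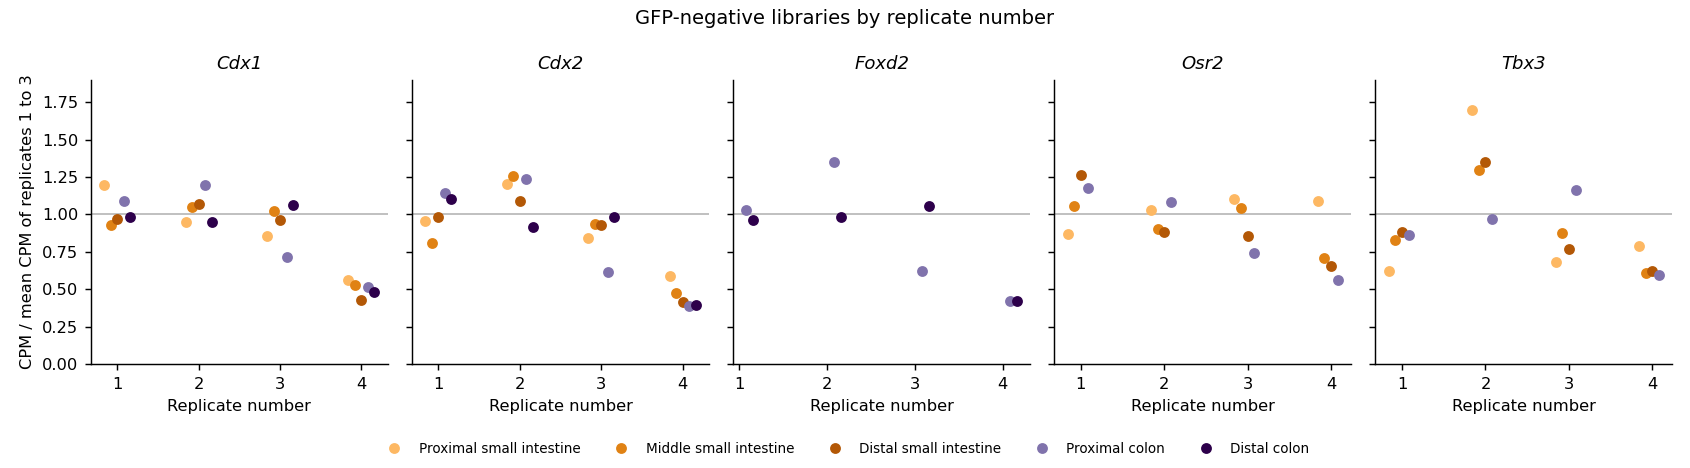
CPM of each of the 5 genes in each GFP-negative library divided by the mean of replicates 1 to 3 of its group (vertical axis, no unit) by replicate number (horizontal axis); colours are gut parts, Foxd2 is shown for colon only, and Osr2 and Tbx3 without distal colon. The libraries numbered 4 sit between 0.387 and 0.587 for Cdx1, Cdx2 and Foxd2 and between 0.56 and 1.09 for Osr2 and Tbx3.

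Most known targets of CDX factors were higher in GFP-negative than in GFP-high small intestine. All 15 genes of the list, which includes Vil1 for the brush border protein villin, Cdh17 for an intestinal cadherin, Heph for an iron oxidase and Abcb1a for a drug efflux pump, were tested. In GFP-high against GFP-negative cells 12 were lower and 2 higher in each small intestinal part, 7 lower and 2 higher in proximal colon, and 6 lower and 2 higher in distal colon. Of all genes 47.1%, 48.3%, 52%, 25.3% and 25.1% passed in these parts in either direction. The medians of the list were -1.99, -2.03, -2.22, -0.53 and -0.40 from proximal small intestine to distal colon, where the median of all genes was between -0.04 and 0. In the fit over all 15 groups, Cdx1 was higher in GFP-high cells of proximal small intestine and lower in those of distal colon. Cdx2 passed in no part of that fit. Each of these Cdx1 calls was lost when certain single libraries were left out. Leaving out all libraries numbered 4 was chosen after the values were seen. Cdx2 then passed, at -0.83 to -0.66, in every part except proximal small intestine, at 0.07. Cdx1 was then lower in proximal and distal colon, at -0.73 and -0.98, and still higher in proximal small intestine, at 0.47.

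The 4 targets with the smallest p were lower in GFP-high cells. Vil1 fell by 2.32 ± 0.16 on the log2 scale in middle small intestine (edgeR adjusted p = 7.08e-17), and in proximal small intestine Abcb1a fell by 2.24 ± 0.17 (edgeR adjusted p = 4.29e-16), Cdh17 by 1.56 ± 0.12 (edgeR adjusted p = 2.08e-15) and Heph by 1.99 ± 0.17 (edgeR adjusted p = 4.57e-14). The 2 that were higher in all 5 parts were Cldn2, for a claudin of crypt tight junctions, and Vdr, for the vitamin D receptor. Several of these genes are themselves markers of mature enterocytes. In GFP-high cells 9 of 9 enterocyte markers were lower in each small intestinal part, where 47.1%, 48.3% and 52% of all genes passed. The part of mature enterocytes in the list's difference was not tested.

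**Figure D4:**
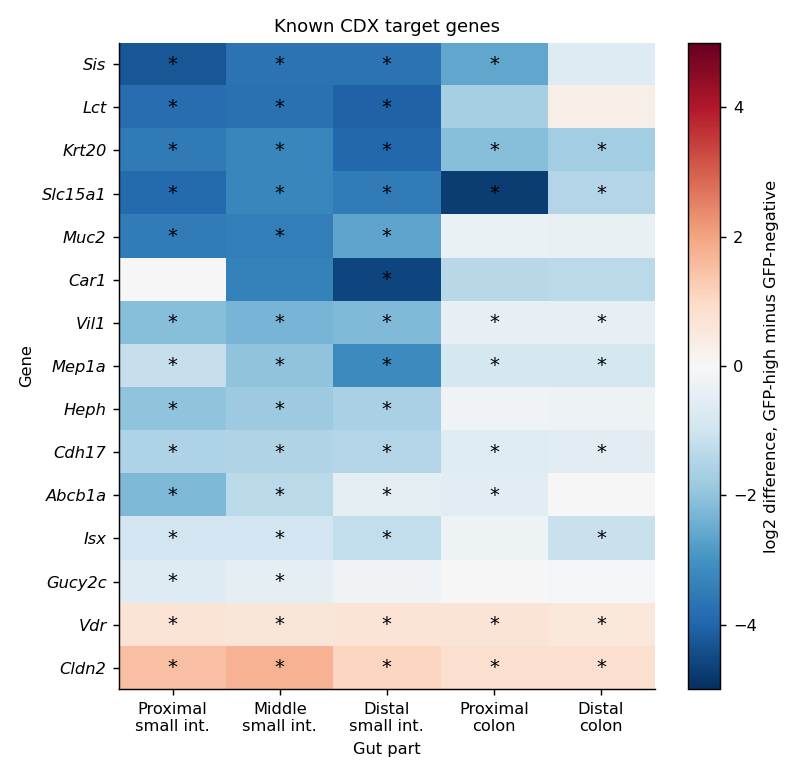
Log2 difference of GFP-high minus GFP-negative cells (colour) for 15 known CDX target genes (rows) in the 5 gut parts (columns); stars mark an adjusted p under 0.05. 12 of 15 are lower in each small intestinal part, and 2, Cldn2 and Vdr, are higher in all 5 parts.

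Of the 19 other intestinal identity factors, all passed the filter on low counts. In GFP-high against GFP-negative cells 6 were higher and 4 lower in proximal, 5 and 9 in middle and 6 and 6 in distal small intestine, 3 and 4 in proximal colon and 2 and 6 in distal colon, with list medians between -0.28 and 0.14. These are 10, 14, 12, 7 and 8 of 19 in either direction, beside 47.1%, 48.3%, 52%, 25.3% and 25.1% of all genes, and the 10 in proximal small intestine are near that share. Those named here, by the smallest p, were Sox9, a factor of crypt progenitors, higher by 3.35 ± 0.23 in proximal small intestine (edgeR adjusted p = 3.67e-17), Hnf4g, an enterocyte factor, which fell by 2.21 ± 0.21 in the middle part (edgeR adjusted p = 1.44e-12), and Klf4, a factor of differentiated cells, which fell by 2.27 ± 0.26 in the middle part (edgeR adjusted p = 2.75e-10).

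From proximal to distal small intestine, 3 of the identity factors rose and 3 fell among GFP-high cells, and 3 and 4 in each of the other fractions, where 11.8%, 8.81% and 15.6% of all genes passed in GFP-high, GFP-intermediate and GFP-negative cells. Foxa1 rose by 1.40 ± 0.17 in GFP-negative cells (edgeR adjusted p = 5.69e-09). Pdx1, a factor of the duodenum, and Onecut2 fell in all 3 fractions, with the smallest p for Pdx1 in GFP-intermediate cells (edgeR adjusted p = 3.32e-14) and for Onecut2 in GFP-negative cells (edgeR adjusted p = 1.01e-13). The list was chosen with earlier results of these data known, so these differences along the small intestine are a description.

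Of 19 relatives of the 5 factors, 9 passed the filter on low counts. Cdx4, Foxd1, Foxd3 and Foxd4 did not. In GFP-high against GFP-negative cells 2 of the 9 were higher and 3 lower in proximal, 1 and 2 in middle and 1 and 3 in distal small intestine, and 0 and 1 in each colon part. Beside the 47.1%, 48.3%, 52%, 25.3% and 25.1% of all genes, these counts are near the background in proximal small intestine and below it in the other 4 parts. The T-box genes Tbx21 and Eomes, which are lymphocyte factors, were higher in the GFP-negative fraction of small intestine (edgeR adjusted p = 2.7e-07 for Tbx21 in the distal and 0.00039 for Eomes in the proximal part), the fraction in which the leukocyte sums were higher too. Mga was higher by 0.99 ± 0.22 in GFP-high cells of distal small intestine (edgeR adjusted p = 0.00013).

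Over the 15 group means of log2 CPM, Osr2 and Tbx3 followed each other most closely of the 5 genes, with Pearson's r = 0.947, and Cdx2 had r = 0.824 with Osr2 and 0.782 with Tbx3. Foxd2 and Cdx1 had r = 0.732, and Cdx1 and Cdx2 had r = -0.116. These are descriptions over 15 group means from the same libraries, and 3 of the genes are near 0 in some parts. Osr2 and Tbx3 are both near 0 in the distal colon groups, and the part of these groups in their r was not tested. Elsewhere their courses differed. In GFP-high cells Osr2 was at 18.6 CPM in proximal and 75.7 in distal small intestine, and Tbx3 at 46.9 and 38.0. Among 13647 genes, those named here are taken from the 3 protein-coding genes most like each member by r. They were Ccdc28b, Tmed9 and Lrfn4 for Cdx1 (0.953, 0.946 and 0.932) and Isx, Fabp5 and Stard3nl for Cdx2 (0.866, 0.844 and 0.841).

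For Foxd2 they were Tm2d2, Hoxa11 and Sult1a1 (0.992, 0.99 and 0.989), for Osr2 Tnfsf13b and Isx (0.968 and 0.965) and for Tbx3 Vav2, H2-T3 and Isx (0.981, 0.98 and 0.98). Isx, an intestinal homeobox gene that limits vitamin A uptake, was thus among the 3 nearest by r for 3 of the 5 genes. By rank the likeness was looser for some pairs: Spearman's rho was 0.586 for Isx and 0.643 for Fabp5 with Cdx2, against 0.861 for Stard3nl, and 0.734 for Hoxa11 with Foxd2. For Isx it was 0.761 with Osr2 and 0.857 with Tbx3. It was at 46.2 to 182 CPM in small intestine and proximal colon and 4.16 to 16.3 CPM in distal colon. The genes near Foxd2 differ in how far they drop in small intestine: Sult1a1 had group means of 0.55 to 4.11 CPM there and 237.5 to 493 in colon, while Tm2d2 had 35.5 to 43.1 and 66.6 to 76.5.

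**Figure D5:**
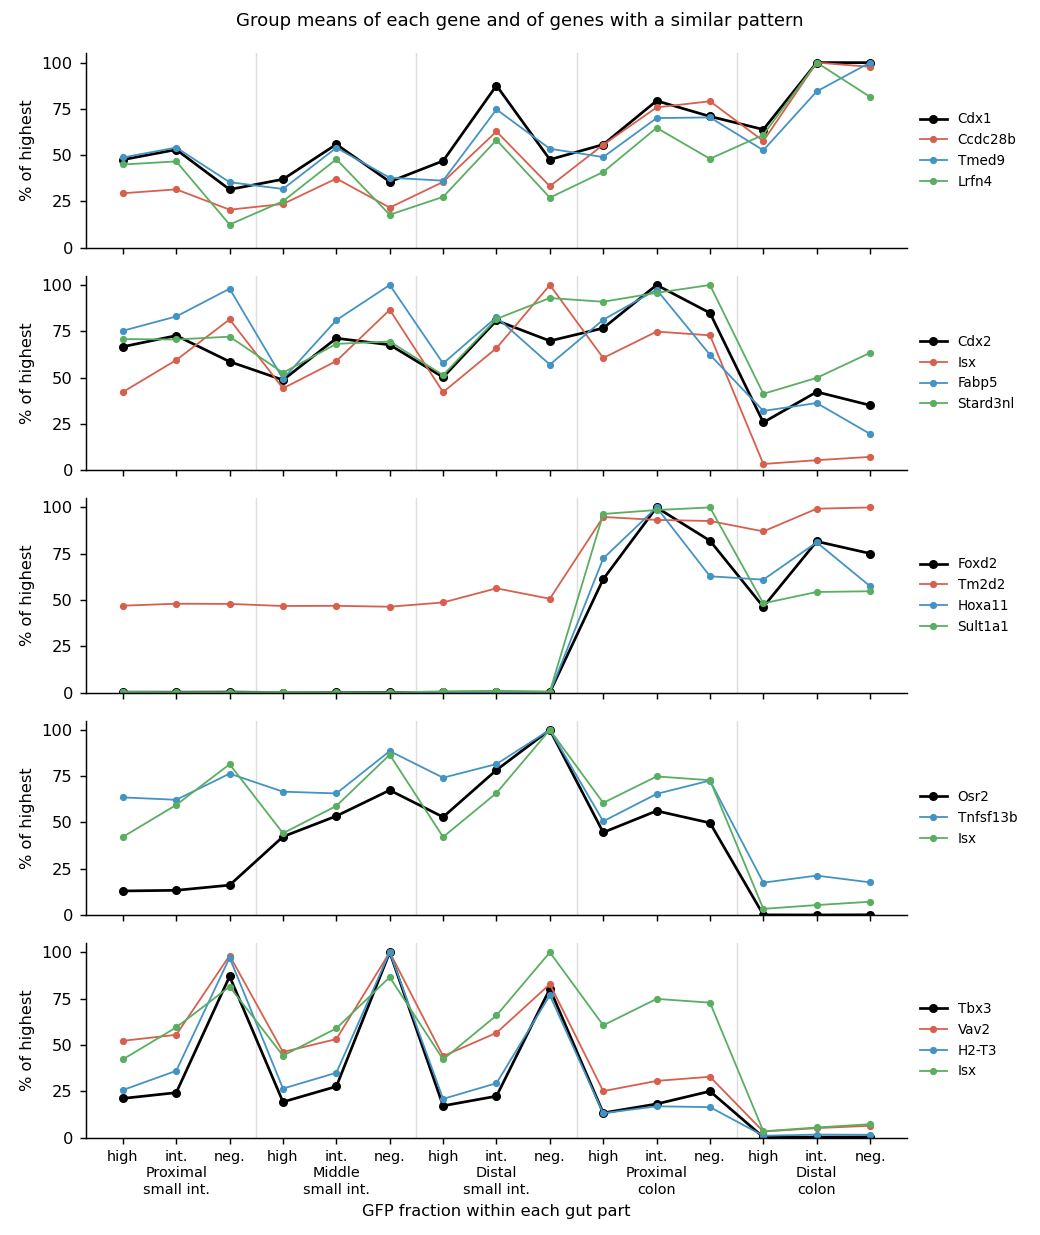
Group means of CPM as a percent of the highest group mean of that gene (vertical axis) over the 15 groups of gut part and GFP fraction (horizontal axis), for each of the 5 genes (black) and 2 or 3 genes among those whose log2 CPM group means followed it most closely by Pearson's r. Foxd2, Hoxa11 and Sult1a1 rise only in colon, and Osr2, Tbx3 and Isx drop in distal colon.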

How the data were processed

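Gene counts of 60 libraries were used as the authors deposited them, in 1 table of raw whole counts per gene with gene length and batch. The submitters' processing notes name STAR, featureCounts, Subread, edgeR and the mm10 genome. Versions, strand setting, annotation release and how read mates were counted are not given in the sources used here. Between 72.2% and 84.4% of counts of 1 to 20 in a library were even, the cause of which was not tested.

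Groups were taken from the labels, 15 of 4 libraries. Depth was 55411864 to 113917959 counts per library, with a median of 81230235. Genes were filtered with filterByExpr (23360 kept), scaled by TMM and tested with edgeR 4.0.16 in R 4.3.3 (glmQLFit and glmQLFTest, 1 model of 15 groups with 45 residual degrees of freedom, two-sided, Benjamini-Hochberg over all genes tested, threshold 0.05). SEs were taken from the F statistic, as the size of the log2 difference over its square root. RPKM was computed here from the counts and the deposited gene length, which equals the exonic length in GENCODE M21 for the 5 genes. Likeness is Pearson's r over 15 group means of log2 CPM with a prior count of 2, among genes with a group mean of at least 1 CPM, with Spearman's rho as an alternative. The 5 genes were named in every comparison, with the 3 protein-coding genes most like each and up to 4 genes with the smallest p per list and kind of comparison, except a few that are not reported here.

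The 5 genes and the gene lists were chosen with earlier results of these data known. A test between the ends of the small intestine was planned, and for the 5 genes its values are given as a description. The deposited batch equals the replicate number in all 60 libraries, which pairs libraries across groups. In 11 of 18 comparisons all 4 pairs deviated together with r over 0.1, and the mean r was -0.201 to 0.627. Alternatives were DESeq2 1.42.0 size factors and its Wald test, no filter on low counts, edgeR's newer quasi-likelihood method, a replicate block, only the groups compared, and leaving out each library, which kept the dispersion trend of all 60. Leaving out the libraries numbered 4 or 1, the proximal colon in place of both colon parts, and the sums of mitochondrially encoded genes were chosen after seeing the data. The scripts were tested on simulated data.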

Additional observations from a re-analysis of the deposited data

Results flagged for a closer look

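In 10 of 75 groups of 4 libraries 1 library stood far from the other 3, where chance gives about 1 in 20 groups. For Cdx1 these were distal small intestine GFP-high replicate 1, low at 164 CPM, and GFP-negative replicate 4 of the same part, low at 106 CPM. For Cdx2 they were distal colon GFP-high replicate 4, high at 123 CPM, and GFP-intermediate replicate 2, high at 180 CPM (179.82 before rounding). For Foxd2 they were middle small intestine GFP-negative replicate 1, high at 0.375 CPM, proximal colon GFP-intermediate replicate 2, high at 128 CPM (127.833 before rounding), and distal colon GFP-negative replicate 4, low at 41.3 CPM. For Osr2 they were replicate 3 of distal colon GFP-high, high at 0.722 CPM, and of GFP-intermediate, high at 0.419 CPM. For Tbx3 it was proximal small intestine GFP-negative replicate 2, high at 345 CPM.

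The difference between GFP-high and GFP-negative cells was itself different in colon and small intestine for 2 genes. It was lower in colon by -0.71 on the log2 scale for Cdx1 and higher in colon by 1.32 for Tbx3, and with the proximal colon alone neither passed the test.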

How the results depend on the processing

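The count of calls among the 5 genes depended on a few settings. GFP-high against GFP-negative cells gave 5 calls, 9 with the newer quasi-likelihood method and 10 without the libraries numbered 4. GFP-high against GFP-intermediate cells gave 1 call, 2 by DESeq2's Wald test, 9 in fits of only the groups compared, 8 without the libraries numbered 4 and 0 without those numbered 1. Calls over all genes moved too: from proximal small intestine to distal colon they numbered 105, 836, 3165, 10 and 422 over all libraries, 394, 2106, 4396, 72 and 1845 by DESeq2's Wald test, 2400, 3545, 3783, 0 and 3433 in fits of only the groups compared, 38, 2534, 4573, 1216 and 2216 without the libraries numbered 4, and 41, 92, 172, 4 and 6 without those numbered 1. Against GFP-negative cells all genes gave 11013, 11290, 12137, 5912 and 5875 calls, and 11156, 11687, 12641, 7121 and 6541 with the newer quasi-likelihood method. The differences of the GFP contrast between parts gave 2 calls, 1 without the libraries numbered 1 and 0 with the proximal colon in place of both colon parts. With the replicate block the counts were 5, 1, 6, 4 and 2, as without it, and it changed no call. The block is a shift per replicate number shared by all 15 groups. It cannot follow replicate 4 being low in GFP-negative and high in colon GFP-high cells. Leaving out 1 library gave 4 to 6 calls against GFP-negative cells, 0 to 1 against GFP-intermediate cells, 5 to 7 for GFP-intermediate against GFP-negative cells, 3 to 5 differences under the threshold between the ends of the small intestine, which are given as a description only, and 2 to 3 for the differences of contrasts.

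Signs changed where a gene was near 0 or a difference small. GFP-high minus GFP-negative of Cdx2 in proximal colon was 0.21 (0.215 before rounding) without the libraries numbered 1, and -0.42 to 0.094 with 1 library left out. For Osr2 with 1 library left out it was -7.27 to 1.32 in distal colon, -7.11 to 1.48 for distal minus proximal colon and -3.08 to 1.22 for colon minus small intestine, and GFP-intermediate minus GFP-negative in distal colon was -3.72 to 0.64. Without the libraries numbered 4 the Osr2 difference between colon parts was 0.40. Of 105 tests, 61 passed under no setting, and 26 of those changed sign under some setting.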
